A study of Mus musculus with 6 samples.

Results

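The Dlk1-Dio3 domain on distal mouse chromosome 12 is an imprinted cluster, a stretch of genes of which each is read mainly from the chromosome of 1 parent. Of its genes, 6 were followed here, out of the 24043 gene rows of the expression table, by symbol: Meg3, Rian and Mirg, which are non-coding and expressed from the maternal chromosome, and Dlk1, Rtl1 and Dio3, which are coding and expressed from the paternal chromosome. The set was chosen by its measured values in the contrast described below, so the levels and differences of these 6 genes are given as a description with no test. RNA-seq was done on mouse embryonic stem (ES) cells, pluripotent cells derived from the early embryo, with 3 wild-type libraries and 3 libraries labelled Q-KO. The Q-KO genotype is a lack of all G1 cyclins, the proteins that activate the kinases of the G1 phase of the cell cycle. Both groups were grown with CHIR99021, which inhibits GSK3, PD184352, which inhibits MEK, and leukaemia inhibitory factor. The labels give no cell line, clone, sex, passage or method of deletion, and they leave unsaid whether replicates were separate cultures. The p-values thus speak of the spread among these 6 libraries, which may be technical in part, while the wild-type libraries also differ in Y-linked transcripts (below).

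In this domain a control region between Dlk1 and Meg3 is methylated on the paternal chromosome, and the unmethylated maternal copy allows transcription of Meg3, Rian and Mirg. These are read in the same orientation, and Rian and Mirg carry clusters of small nucleolar RNAs and microRNAs in their introns and exons. Dlk1 encodes a membrane protein related to Notch ligands, Rtl1 a protein derived from a retrotransposon and needed in the placenta, and Dio3 the deiodinase that inactivates thyroid hormone. The domain is known for losing maternal transcription in some mouse ES and induced pluripotent cell lines. Gene-level values do not show which parental copy was read.

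The starts of the 3 non-coding genes are shown because these were the genes whose RNA stood higher together in the Q-KO libraries. Each window is from RefSeq (GRCm38.p6, plus strand) and runs from 250 bases before the annotated start to 50 bases after it. Capitals mark matches to TGCCGC, the methylated hexamer that ZFP57 binds, here on the minus strand and so printed as its reverse complement, and to TGACGTCA, the full cyclic AMP response element. The windows lie at chr12:109540746-109541045 for Meg3, chr12:109603695-109603994 for Rian and chr12:109734731-109735030 for Mirg.
Meg3: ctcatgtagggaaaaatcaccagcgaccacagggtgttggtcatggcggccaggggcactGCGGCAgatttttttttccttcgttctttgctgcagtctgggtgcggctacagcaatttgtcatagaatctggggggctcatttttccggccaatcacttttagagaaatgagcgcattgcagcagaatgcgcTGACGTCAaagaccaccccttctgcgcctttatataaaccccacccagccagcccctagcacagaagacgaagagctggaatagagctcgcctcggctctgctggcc
Rian: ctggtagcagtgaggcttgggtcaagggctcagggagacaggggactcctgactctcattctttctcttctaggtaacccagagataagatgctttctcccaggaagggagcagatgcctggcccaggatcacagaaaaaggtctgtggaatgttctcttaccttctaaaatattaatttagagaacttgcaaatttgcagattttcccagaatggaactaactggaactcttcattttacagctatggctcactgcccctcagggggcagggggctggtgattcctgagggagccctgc
Mirg: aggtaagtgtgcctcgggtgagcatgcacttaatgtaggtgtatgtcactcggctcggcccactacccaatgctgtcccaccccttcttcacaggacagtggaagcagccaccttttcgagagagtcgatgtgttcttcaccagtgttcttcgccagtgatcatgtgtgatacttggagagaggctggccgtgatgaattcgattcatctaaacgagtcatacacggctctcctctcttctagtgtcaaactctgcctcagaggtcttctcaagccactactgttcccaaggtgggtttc

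The Meg3 window held 13 CpG dinucleotides, the Mirg window 10 and the Rian window 0, against a median of 7 over 32851 RefSeq windows of the same length. In the Meg3 window the hexamer lay 190 to 185 bases before the start and the response element 57 to 50 bases before it, with no overlap. On either strand, 11.61% of all windows held the hexamer and 1.79% the response element. Neither was found in the windows of Rian, Mirg, Dlk1 (9 CpG) or Dio3 (25 CpG), or in that of an alternative Meg3 start (1 CpG). These matches describe letters in a window and were not tested as binding sites.

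The values are FPKM, fragments scaled by gene length and library size, so they can be set side by side between genes. Summed FPKM per library ranged from 525134 to 641715, between 11032 and 11591 genes reached 1 FPKM, and the absolute depth is unknown. All 8 ES cell markers examined were present, with summed levels of 5850 to 7250 FPKM in wild-type and 5700 to 10300 FPKM in Q-KO libraries. Dppa5a made up most of each sum, at 3676 FPKM in Q-KO replicate 1 to 7781 FPKM in Q-KO replicate 3. Zfp42 varied within groups, with 76.6, 78.9 and 363.5 FPKM across the wild-type replicates and 176.5, 75.4 and 74.7 FPKM across those of Q-KO. Wild-type replicate 3 stood apart: its 5 Y-linked genes summed to 98.6 FPKM, and those of the Q-KO libraries to 43.2 to 70.5 FPKM, whereas all were listed at 0 in wild-type replicates 1 and 2. Of the G1 cyclin genes, Ccnd3 averaged 10.8 FPKM in Q-KO against 85.6 FPKM in wild-type, Ccnd1 8.89 against 30.1 and Ccne2 2.98 against 6.83, and Ccnd2 was below 1 FPKM. Ccne1 ran against the genotype label, with 75.4 against 49.1 FPKM. A gene-level FPKM does not show which part of a gene was deleted, and Q-KO below stands for the libraries labelled so. For the Y-linked difference, results are also given without wild-type replicate 3 or against it alone where that matters. Eef1a1, an abundant translation factor, was listed at 0 in all wild-type libraries but at 5333 to 5903 FPKM in Q-KO, so a listed 0 can be a failed estimate.

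Differences are Q-KO minus wild-type on the log2(FPKM + 1) scale, which understates changes of low genes. Over the 11573 genes whose mean reached 1 FPKM, limma called 4.06% (470 genes) at an adjusted p under 0.05, 3.04% higher (352) and 1.02% lower (118) in Q-KO libraries. The split was 262 higher and 162 lower after median-of-ratios scaling, and 247 and 210 after quantile normalization. The median log2 difference of all tested genes was 0.07. An unadjusted limma p under 0.05 was found for 2493 of the 11573 genes, the background for list counts at that p below. Every Q-KO library lay above every wild-type library for 18.2% of the tested genes.

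All 3 maternally expressed non-coding RNAs were higher in each Q-KO library than in any wild-type library, at 2.29 to 2.95 times the wild-type mean. Meg3, a long non-coding RNA spliced from the gene next to the control region, gave 42.6, 33.2 and 36.3 FPKM across wild-type replicates 1 to 3, against 69.8, 117.2 and 143.5 FPKM across Q-KO replicates 1 to 3. The groups did not overlap, and the lowest Q-KO library was at 1.64 times the highest wild-type library. Its mean was 37.35 ± 4.77 FPKM in wild-type against 110.2 ± 37.35 FPKM in Q-KO libraries (± SD of 3 libraries here and below), a log2 difference of 1.48. Among all genes of a library Meg3 ranked between 1905 and 2400 by FPKM in wild-type and between 609 and 1166 in Q-KO libraries. In bulk RNA, a change in the number of cells that express the gene and a change in RNA per cell cannot be told apart.

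Rian, the host of most box C/D small nucleolar RNAs of the domain, gave 66.5, 46.4 and 47.8 FPKM across the wild-type replicates, against 94.2, 136.9 and 136.7 FPKM across those of Q-KO. The groups were again separate, with a lowest Q-KO value 1.42 times the highest wild-type value. The means were 53.6 ± 11.2 and 122.6 ± 24.6 FPKM, a log2 difference of 1.18. Rian was more abundant than Meg3 in every library except Q-KO replicate 3.

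Mirg, the host of the distal microRNA cluster and the lowest of the 3, gave 9.23, 4.87 and 6.07 FPKM across the wild-type replicates, against 10.99, 17.9 and 24.9 FPKM across those of Q-KO. Wild-type replicate 1 and Q-KO replicate 1 came close, a ratio of 1.19, but did not overlap. The means were 6.73 ± 2.25 and 17.9 ± 6.97 FPKM, a log2 difference of 1.26. For each of the 3 RNAs, wild-type replicate 1 was the highest wild-type library and Q-KO replicate 1 the lowest Q-KO library.

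**Figure D1:**
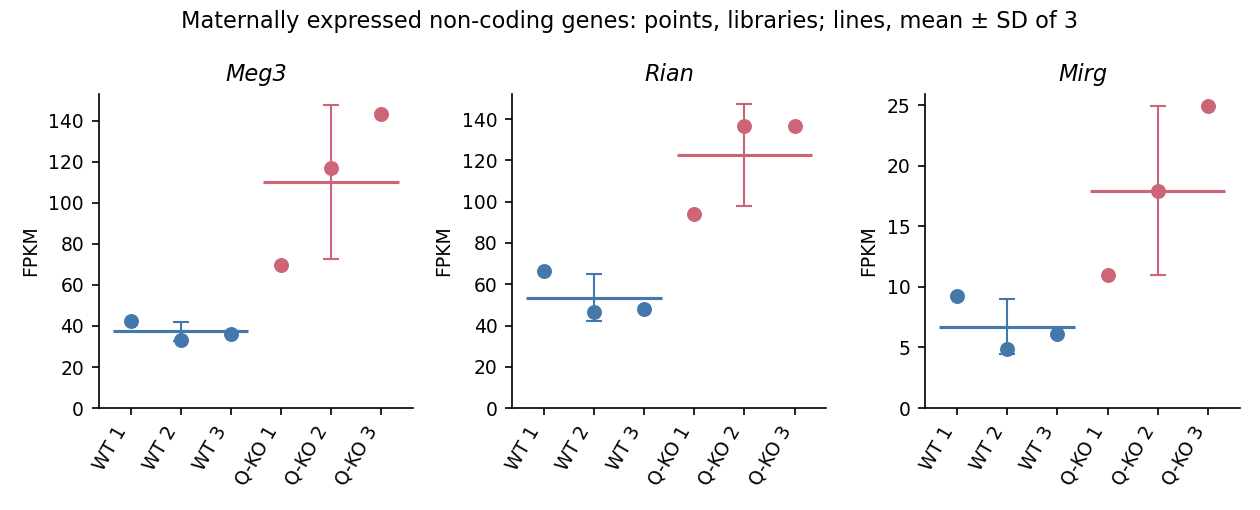
FPKM (vertical axis) of Meg3, Rian and Mirg in the 3 wild-type and 3 Q-KO libraries (horizontal axis), with points for libraries and lines for the mean ± SD. All Q-KO points lie above all wild-type points in each panel, and Q-KO replicate 1 is the lowest Q-KO point, at 69.8, 94.2 and 10.99 FPKM.

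Q-KO replicate 1 also held the highest summed level of 13 fibroblast and feeder markers, 8.74 FPKM against 2.76 to 3.24 FPKM in the other Q-KO libraries and 2.09 to 3.64 FPKM in the wild-type libraries. Of these markers 8 stayed below 1 FPKM in every library and none was at 0 in all. The part of these cells in the Meg3, Rian and Mirg levels was not tested, and without Q-KO replicate 1 the log2 differences were 1.78, 1.36 and 1.56. The 6 trophectoderm markers summed to 35.3 to 44.5 FPKM in Q-KO and 16.9 to 20.5 FPKM in wild-type libraries, with 4 higher in every Q-KO library, and their part was not tested either. Most of that sum was Tfap2c, at 34.2 ± 5.23 FPKM in Q-KO and 17.2 ± 1.67 FPKM in wild-type libraries. In the same order, Eomes was at 5.64 ± 0.338 and 1.16 ± 0.0845 FPKM, and Cdx2 at 0.547 ± 0.225 and 0.0310 ± 0.0161 FPKM. Hand1 had the lower mean in Q-KO libraries, at 0.0783 ± 0.0299 and 0.122 ± 0.0736 FPKM, with overlapping groups. Of the 6 markers 4 stayed below 1 FPKM in every library. The 5 mesoderm markers, each below 1 FPKM throughout, summed to 1.65 to 2.14 FPKM in Q-KO and 0.951 to 1.26 FPKM in wild-type libraries, and their part was not tested. Summed neural markers (24.4 to 44.9 and 31.6 to 51.6 FPKM) and endoderm markers (1.01 to 1.90 and 1.42 to 1.52 FPKM) overlapped between groups. Of the 7 neural markers 1 (Pax6) was higher and 2 (Nes and Map2) were lower in every Q-KO library, and Tubb3 made up most of the sum. Of the 6 endoderm and 5 mesoderm markers 1 each was higher in every Q-KO library and 0 lower, and of the 13 fibroblast and feeder markers 2 were higher and 1 lower. Over all tested genes, 18.2% were higher in every Q-KO library, and the share lower in every one was not computed. Many of these markers lay below the filter for that share, so nothing is read from their counts.

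The paternally expressed coding genes were low, from Rtl1 near the bottom of the measured range to Dio3, which reached 1 FPKM in 2 wild-type libraries, and their differences did not all have the same sign. Dlk1 gave 0.118, 0.145 and 0.0029 FPKM across the wild-type replicates, against 0.305, 0.461 and 0.285 FPKM across those of Q-KO. All Q-KO libraries were above all wild-type libraries, but every value was below the 1 FPKM filter. The means were 0.0886 ± 0.0755 and 0.3503 ± 0.0967 FPKM, a ratio of 3.95 and a log2 difference of 0.31. Even in the highest Q-KO library only 29.5% of the genes above 0 had a lower value than Dlk1, and in wild-type replicate 3 only 1.4% did.

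Rtl1, the retrotransposon-derived gene, was listed at 0 in all of wild-type, against 0.0058, 0.0128 and 0.0045 FPKM across the Q-KO replicates. These values were near the lowest that any gene had, with 2.09% to 6.32% of the genes above 0 lower, and no fold is given against a group listed at 0. Reads from Rtl1 and from its antisense transcript cannot be told apart here, since no strand setting was given.

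Dio3, which removes iodine from thyroid hormone, gave 1.66, 0.437 and 6.26 FPKM across the wild-type replicates, against 0.919, 0.407 and 0.726 FPKM across those of Q-KO. The ranges overlapped, and wild-type replicate 3 alone lay far above the rest. The means were 2.79 ± 3.07 and 0.684 ± 0.259 FPKM, with a log2 difference of -0.86 that was -0.23 without wild-type replicate 3 and -2.12 against that library alone. The library with the highest Dio3 was thus the one with the lowest Dlk1. Antisense reads from Dio3os would likewise count toward Dio3 if strand was not used.

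Of the 6 genes, 4 passed the filter of 1 FPKM (Meg3, Rian, Mirg and Dio3), and 3 of these 4 lay higher in every Q-KO library, beside 18.2% of all tested genes. That count restates the values by which the genes were chosen. Dlk1 and Rtl1 also had separate groups, but below the filter. Dio3 passed the filter through wild-type replicates 1 and 3, the only libraries in which it reached 1 FPKM.

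**Figure D2:**
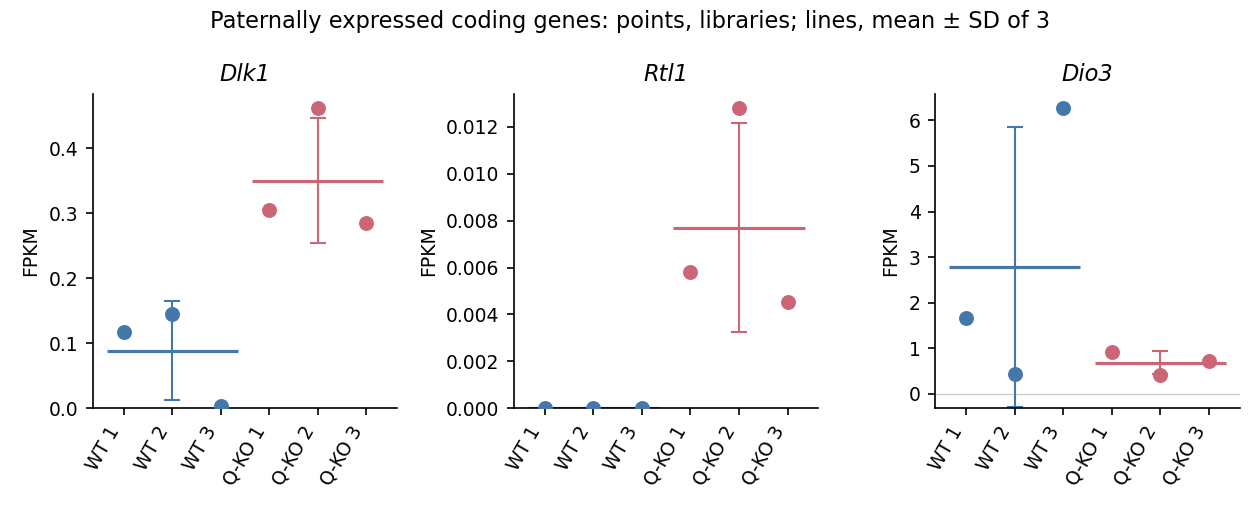
FPKM (vertical axis, a separate scale for each gene) of Dlk1, Rtl1 and Dio3 in the 6 libraries (horizontal axis), with points for libraries and lines for the mean ± SD. Dlk1 and Rtl1 stay below 0.462 FPKM everywhere, and the Dio3 point of wild-type replicate 3, at 6.26 FPKM, stands apart.

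Ratios between the 3 non-coding RNAs within a library do not depend on how libraries are scaled to each other. The Rian to Meg3 ratio was 1.56, 1.40 and 1.32 in the wild-type and 1.35, 1.17 and 0.953 in the Q-KO libraries, with means of 1.43 ± 0.124 and 1.16 ± 0.198. The ranges overlapped at wild-type replicate 3 and Q-KO replicate 1. The Mirg to Meg3 ratio was 0.217, 0.147 and 0.167 in wild-type and 0.157, 0.153 and 0.174 in Q-KO libraries, overlapping throughout, with means of 0.177 ± 0.0361 and 0.161 ± 0.0111.

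The summed FPKM of Meg3, Rian and Mirg was 118.2, 84.5 and 90.2 in the wild-type and 175.0, 272.0 and 305.2 in the Q-KO libraries, which did not overlap. The summed FPKM of Dlk1, Rtl1 and Dio3 was 1.77, 0.583 and 6.27 in the wild-type and 1.23, 0.881 and 1.02 in the Q-KO libraries, which did overlap. The coding genes therefore made up 1.48%, 0.685% and 6.50% of the summed FPKM of the 6 genes in the wild-type libraries and 0.697%, 0.323% and 0.332% in the Q-KO libraries. Wild-type replicate 2 fell inside the Q-KO range by this measure, between Q-KO replicates 3 and 1.

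**Figure D3:**
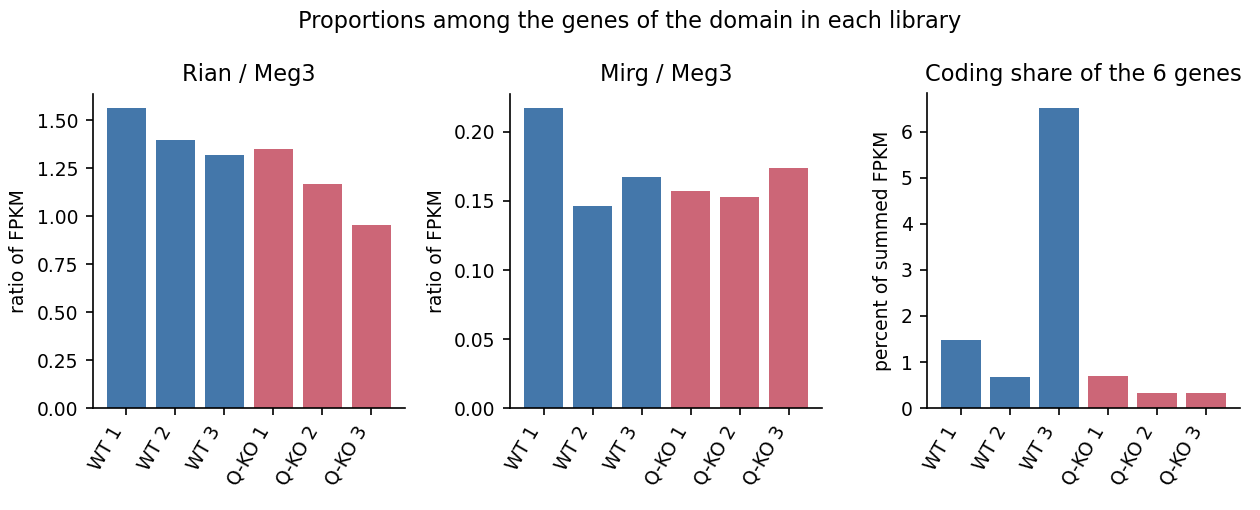
Bars give, for each of the 6 libraries (horizontal axis), proportions among the genes of the domain on vertical axes that start at 0: ratios of FPKM between the non-coding RNAs and the coding genes' percent of summed FPKM. The Rian to Meg3 ratio runs from 0.953 to 1.56, and the coding share is highest in wild-type replicate 3, at 6.50%.

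The small RNA genes carried by the non-coding RNAs were nearly all listed at 0, and the few above 0 are shown by sequence so that they can be recognised. Of 67 microRNA and small nucleolar RNA genes of the domain in the table, 4 were above 0 in any library, and all 4 were found in RefSeq's microRNA table (GRCm38.p6). Their mature sequences are given with the seed, bases 2 to 8, in capitals, and the 7 sequences have 7 distinct seeds. Mir1906-1 lies inside Meg3, Mir1188 inside Rian, Mir3072 inside Mirg and Mir433 within Rtl1.
mmu-miR-1906: uGCAGCAGccugaggcagggcu
mmu-miR-433-5p: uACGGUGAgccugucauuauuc
mmu-miR-433-3p: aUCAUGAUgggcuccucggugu
mmu-miR-1188-5p: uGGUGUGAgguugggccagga
mmu-miR-1188-3p: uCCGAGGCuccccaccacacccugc
mmu-miR-3072-5p: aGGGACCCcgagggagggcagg
mmu-miR-3072-3p: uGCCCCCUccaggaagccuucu

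FPKM of genes this short is unreliable in libraries of long RNA, and fragments of the host transcript over these positions count toward it. Mir1906-1 gave 888.4, 661.4 and 683.9 FPKM across the wild-type replicates, against 1117, 1311 and 1617 FPKM across those of Q-KO, a log2 difference of 0.85 with no overlap. It was added to the list after the data were seen, and its microRNA has another genomic copy, so its reads are uncertain. Mir3072 was listed at 0 in all of wild-type, against 155.3, 190.6 and 50.6 FPKM across the Q-KO replicates. It reached the filter through the Q-KO libraries alone and its limma call is set against a group listed at 0, so no p is given for it. It and Eef1a1 were the only 2 genes of the table at 0 in every wild-type and at 10 FPKM or more in every Q-KO library, and 0 genes had the reverse pattern. Whether the zeros of Mir3072 are failed estimates was not tested.

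Mir433 was listed at 0 in all of wild-type, against 2.67, 3.98 and 0 FPKM across the Q-KO replicates, which overlap at 0. Mir1188 ran the other way, with 9.17, 3.77 and 0 FPKM across the wild-type replicates and 0 in all of Q-KO, again overlapping at 0. Neither passed the threshold. Of the other domain transcripts fixed in the list, 61 were in the table and 3 were tested, with 1 higher and 0 lower in Q-KO libraries. The 1 call is Mir3072, and each of the 3 has a group listed wholly at 0, so nothing is read from the count. That count was 2 without wild-type replicate 3, when Mir1188 also passed, and 2 without Q-KO replicate 3, when Mir433 also passed.

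A pair of antisense transcripts was measurable below the filter. The RNA 6430411K18Rik, antisense to Rtl1 and also chosen after the data were seen, gave 0.335, 0.133 and 0.125 FPKM across the wild-type replicates, against 0.444, 0.946 and 0.780 FPKM across those of Q-KO. Its groups did not overlap, and it was listed above Rtl1 in each library. Without a strand setting, reads from it and from Rtl1 cannot be told apart, so this order is uncertain. Dio3os, antisense to Dio3, gave 0.275, 0.177 and 0.225 FPKM across the wild-type replicates, against 0.326, 0.240 and 0.584 FPKM across those of Q-KO, which overlapped.

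The genes on either side of the domain give the local background. None of the 11 tested flanking genes passed the threshold (0 higher, 0 lower, with 1 at an unadjusted limma p under 0.05), and their median log2 difference was 0.10 (range -0.23 to 0.47), close to the 0.07 of all tested genes. Begain, the nearest listed gene on the Dlk1 side, averaged 0.515 ± 0.117 FPKM in wild-type against 0.541 ± 0.0249 FPKM in Q-KO libraries, below the filter. Ppp2r5c, a phosphatase subunit nearest on the Dio3 side, was at 72.8 ± 3.34 and 64.4 ± 6.81 FPKM, a log2 difference of -0.18 (SE 0.13, limma adjusted p = 0.461). Hsp90aa1, a chaperone and the most abundant of them, was at 2079 ± 198.7 and 2223 ± 182.2 FPKM (limma adjusted p = 0.779). The largest flanking difference was that of Wars, a tRNA synthetase gene named after its values were seen, at 0.47 (SE 0.16, limma adjusted p = 0.152).

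**Figure D4:**
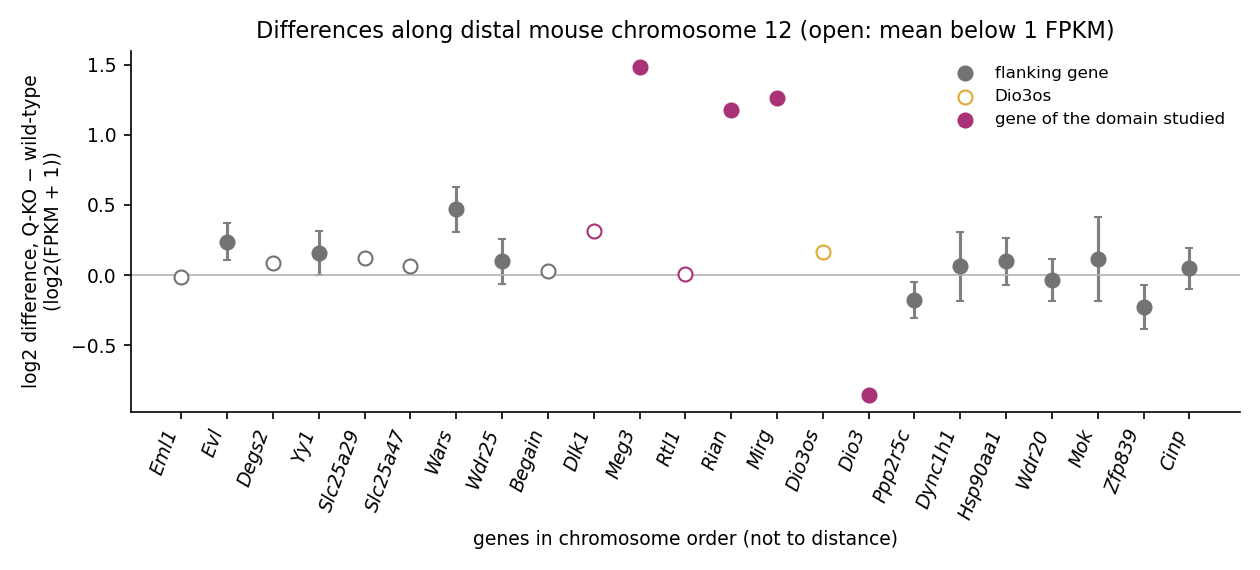
Log2 differences (vertical axis, Q-KO minus wild-type on log2(FPKM + 1)) of the 6 genes, Dio3os and their neighbours in chromosome order (horizontal axis, not to distance), with bars for the limma SE of tested neighbours and open symbols for genes below a mean of 1 FPKM. Meg3, Rian and Mirg stand at 1.48, 1.18 and 1.26, between neighbours from -0.23 to 0.47.

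None of 20 tested regulators of imprints passed the threshold (0 higher, 0 lower), and their median log2 difference was -0.0011. Of the 20, 3 had an unadjusted limma p under 0.05, beside 2493 of all 11573 tested genes, so nothing particular is read from that count. Trim28, the corepressor that ZFP57 recruits to methylated imprint control regions and the most abundant of them, averaged 329.5 ± 78.1 FPKM in wild-type against 347.3 ± 25.7 FPKM in Q-KO libraries (limma adjusted p = 0.797). The 3 with an unadjusted p under 0.05 were named after their values were seen. Zfp57 itself gave 201.6, 166.3 and 150.2 FPKM across the wild-type replicates, against 218.4, 222.1 and 241.8 FPKM across those of Q-KO, separate groups with a log2 difference of 0.40 (SE 0.15, limma adjusted p = 0.166). Rbbp4, a histone-binding subunit of chromatin complexes, was at 111.7 ± 18.6 and 151.8 ± 3.85 FPKM (limma adjusted p = 0.138). Its log2 difference was 0.45, and 0.73 against wild-type replicate 3 alone. Dnmt3l, the cofactor that stimulates de novo DNA methylation, was at 18.2 ± 7.93 and 33.2 ± 13.6 FPKM, with overlapping ranges (limma adjusted p = 0.230). Dppa3, also named after its values were seen and known to protect maternal methylation in the zygote and to bear on Meg3 imprinting in reprogramming, gave 43.0, 113.4 and 273.5 FPKM across the wild-type replicates, against 56.5, 55.9 and 114.3 FPKM across those of Q-KO. It varied more among the wild-type libraries than between groups (log2 difference -0.62, limma adjusted p = 0.587).

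Pathways in which the coding genes act showed no call. Of 11 tested Notch pathway genes, 0 rose and 0 fell, with 2 at an unadjusted limma p under 0.05 and a median log2 difference of -0.04. Hes1, a Notch target and the most abundant of them, averaged 31.2 ± 7.82 FPKM in wild-type against 43.4 ± 6.61 FPKM in Q-KO libraries (log2 difference 0.48, limma adjusted p = 0.225). Against wild-type replicate 3 alone the log2 difference of Hes1 was 0.89. Dlk2, the close relative of Dlk1, stayed at or below 0.286 FPKM and passed only with no filter. Of 6 tested thyroid hormone genes, 0 rose and 0 fell, with 2 at an unadjusted limma p under 0.05. All 6 had log2 differences below 0, with a median of -0.22. Thra, a thyroid hormone receptor, was at 4.21 ± 0.998 and 2.51 ± 0.115 FPKM, and Rxra, its dimer partner, at 3.67 ± 0.707 and 2.25 ± 0.0750 FPKM. Both had separate groups but missed the threshold (limma adjusted p = 0.146 and 0.140) and were named after their values were seen. Klf9, a hormone-responsive factor and the most abundant of them, was at 34.3 ± 1.14 and 34.3 ± 7.12 FPKM (limma adjusted p = 0.953).

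Of 4 tested genes of the retrotransposon gag-like family to which Rtl1 belongs, 0 rose and 0 fell, with 1 at an unadjusted limma p under 0.05. Peg10, a paternally expressed member on another chromosome, gave 0.769, 0.778 and 1.78 FPKM across the wild-type replicates, against 13.3, 4.23 and 1.85 FPKM across those of Q-KO. Its groups were separate but met closely at wild-type replicate 3 and Q-KO replicate 3 (log2 difference 1.54, limma adjusted p = 0.145).

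Imprinted genes outside the domain rose in 1 of 11 maternally and 2 of 17 paternally expressed genes tested, and 0 fell in either class, beside 3.04% higher and 1.02% lower over all tested genes. With counts this small nothing particular to these lists is read from them. Against wild-type replicate 3 alone, the log2 difference was -1.87 for Inpp5f and 0.99 for Grb10. No p is given, since the spread around that 1 library is not measured. Inpp5f gave 0.632, 0.834 and 6.02 FPKM across the wild-type replicates, against 1.63, 0.818 and 0.484 FPKM across those of Q-KO. Grb10 gave 13.1, 14.8 and 4.95 FPKM across the wild-type replicates, against 8.96, 12.9 and 10.9 FPKM across those of Q-KO. Inpp5f and Grb10 were named after their values were seen. With all wild-type libraries the median log2 differences of the maternally and paternally expressed lists were 0.18 and 0.24. Gnas, the gene of the stimulatory G protein alpha subunit, which is maternally expressed only in some tissues, gave 50.6, 74.9 and 66.2 FPKM across the wild-type replicates, against 102.8, 119.2 and 110.0 FPKM across those of Q-KO, separate groups with a log2 difference of 0.80 (SE 0.17, limma adjusted p = 0.0396). Its call was lost in 9 of 15 alternatives, among them those without wild-type replicate 1 (0.102) and without each Q-KO replicate (0.0949, 0.200 and 0.111), and its limma adjusted p ranged from 0.0316 to 0.200 over all 15. Nap1l5, a nucleosome assembly gene, was at 0.398 ± 0.137 and 3.73 ± 0.237 FPKM, with a log2 difference of 1.76 (SE 0.17, limma adjusted p = 0.0040). Nnat, a neuronal membrane proteolipid, was at 0.718 ± 0.628 and 4.78 ± 1.095 FPKM, with a log2 difference of 1.80 (SE 0.28, limma adjusted p = 0.0155), and its call was lost when Q-KO replicate 1, 2 or 3 was left out (limma adjusted p = 0.0572, 0.108 and 0.0624). Nap1l5 and Nnat were above the filter through the Q-KO libraries, in which they were high. Nothing is thus read from their 2 calls, and neither was tested at a mean of at least 5 FPKM.

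**Figure D5:**
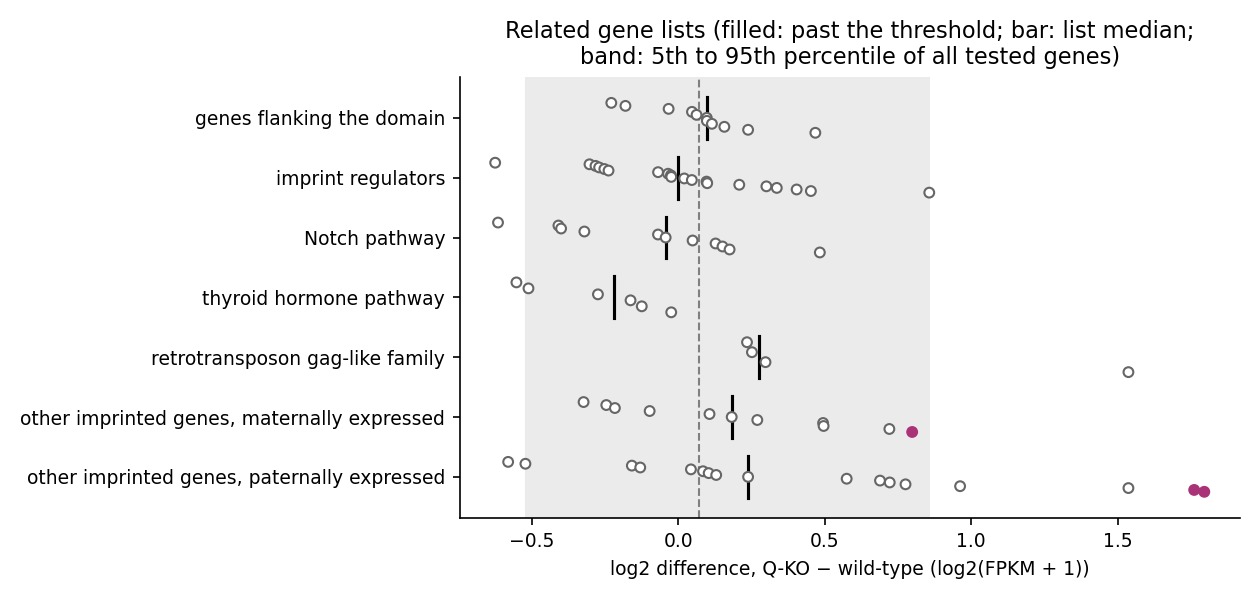
Log2 differences (horizontal axis, Q-KO minus wild-type on log2(FPKM + 1)) of the tested genes of each related list (vertical axis), filled where past the threshold, with a bar for the list median and a band for the 5th to 95th percentile of all tested genes. The list of other domain transcripts is left out. The filled points are Gnas and also Nap1l5 and Nnat, which were above the filter through the Q-KO libraries. The flanking genes lie between -0.23 and 0.47.

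The whole table was then searched for genes whose pattern over the 6 libraries was most like that of Meg3, by the root mean square difference of log2(FPKM + 1) profiles centred on their own means. Among 10797 genes the 5 nearest were Ffar3, a receptor for short-chain fatty acids (0.13), Aldh1a3, an enzyme of retinoic acid synthesis (0.15), Atg16l2, an autophagy gene (0.17), Mirg (0.18) and Adam11 (0.19). Rian was the 7th at 0.22 and Dio3 ranked 10701 at 1.40, beside a range of 2.08 for Meg3 itself. Ffar3 went from 0.765 ± 0.0577 to 4.76 ± 1.69 FPKM and, like Meg3, was lowest among the Q-KO libraries in replicate 1 (2.90 FPKM) and highest in replicate 3 (6.19 FPKM). For Dlk1, whose range was only 0.54 on this scale, the nearest were Mettl6, Ankrd13a, Adpgk, Elf2 and Usp27x, at 0.01 to 0.04, while Rian, Mirg and Meg3 ranked 9659, 10263 and 10365 among 10798 genes. These distances describe 6 libraries that share their groups and carry no test. They depend on the size of a change as well as its pattern, and Dlk1 values are compressed on this scale. The ranks of Rian, Mirg and Meg3 against Dlk1 thus do not show a different pattern. With a pseudocount of 0.1 the log2 difference of Dlk1 was 1.33.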

How the data were processed

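The deposited table holds FPKM values, which the authors made per gene symbol for 3 wild-type and 3 Q-KO libraries. The submitters' processing notes name the build mm9 and the tools STAR 2.5, Cufflinks, bcl2fastq 2.16 and CASAVA. Roles, annotation and strand setting were not given in the sources used here. After 1 stray header row was dropped, 24043 gene rows remained. Depth relative to wild-type replicate 1, read from low values, was 1.099 to 1.215, and no counting interval was computed because absolute depth is unknown.

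For the 11573 genes whose mean reached 1 FPKM, log2(FPKM + 1) was fitted with limma 3.58.1 in R 4.3.3 (lmFit, then eBayes with trend). Tests were two-sided, p-values were adjusted by Benjamini-Hochberg over all tested genes, and the threshold was 0.05. No count test was run on FPKM. The 6 genes and the 8 related lists were chosen with earlier results of these data known, so no list count is independent evidence. Named genes were the 6 genes, domain transcripts above 0, up to 4 calls per list or the most abundant gene of a list with none, the nearest neighbours and the 5 most similar profiles. Other names were chosen after their values were seen. Alternatives were another pseudocount, other filters, median-of-ratios scaling, quantile normalization, no trend, robust eBayes, a replicate block, a comparison with wild-type replicate 3 alone through Y-linked transcripts as a term, and leaving out each library. Promoter and microRNA sequences and gene order came from RefSeq tables (GRCm38.p6), matched by symbol. Of the 6 genes 5 had a promoter window. None of that build's positions was set against the mm9 files.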

Additional observations from a re-analysis of the deposited data

How the results depend on the processing

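Meg3, Rian and Mirg kept a positive log2 difference under all 10 alternatives run for them, from 1.26 to 1.78, 1.09 to 1.36 and 1.00 to 1.56. Dlk1 moved to 1.33 with a pseudocount of 0.1 and to 0.43 against wild-type replicate 3 alone (Y-linked transcripts as a term), Rtl1 moved to 0.11 with a pseudocount of 0.1, and Dio3 moved to -2.12 against wild-type replicate 3 alone. The cause was not tested. The 470 calls over all genes became 894 with the Y-linked term, 266 at a mean of at least 5 FPKM, and 28 (without Q-KO replicate 2) to 566 (without wild-type replicate 3) when a library was left out, with 94 for wild-type replicate 1 left out, 187 for Q-KO replicate 1 and 85 for Q-KO replicate 3. With the replicate block there were 333 calls. Same-numbered libraries did not deviate together (r of -0.028, 0.012 and 0.022, beside -0.129 to 0.171 for the other pairs). With 3 libraries per group this cannot decide whether equal numbers share a culture.

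With the Y-linked term, imprint regulators had 1 call, the Notch pathway 1 and paternally expressed genes outside the domain 7 (6 higher, 1 lower). With no filter the Notch pathway had 1 call and maternally expressed genes outside the domain 0, and the latter also had 0 after median-of-ratios scaling, after quantile normalization and with no intensity trend. At a mean of at least 5 FPKM the paternally expressed genes had 0 calls, since Nnat and Nap1l5 were no longer tested. Leaving out 1 library gave 1 to 2 calls among other domain transcripts, 0 to 1 among maternally and 1 to 3 (without wild-type replicate 2, when Slc38a4 also passed) among paternally expressed genes outside the domain. The lists of flanking genes, thyroid hormone genes and gag-like genes kept 0 calls under all 15 alternatives. Absolute depth is unknown, so the counting error of Dlk1 and Rtl1, both below 1 FPKM, could not be given.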
